A study of Mus musculus with 14 samples.

Results

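MicroRNA expression in the corpus callosum was compared between late and early recovery from cuprizone (CPZ), a copper chelator whose toxicity to oligodendrocytes strips this white matter tract of myelin. Mice of the 2dr group had received CPZ in powdered chow (0.2 to 0.4%) for 4 weeks and regular chow for the following 2 days, and mice of the 2wr group had received the same CPZ diet and regular chow for the following 2 weeks. The labels give the mice as male and name no genetic modification, and the methods give 7 to 8 weeks as the age at the start of CPZ feeding. All arrays with these 2 labels were taken, which were 4 arrays at 2dr and 2 at 2wr, or 6 of the 14 arrays of the series. The remaining arrays came from untreated control mice (n = 4) and from mice at the end of 4 weeks of CPZ (4wd, n = 4). They entered the estimate of the spread between arrays and are given below only as background. The 2wr group has fewer arrays here than the methods give mice per group. The labels do not say that each array is a separate mouse, so the p-values measure the spread between these arrays.

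A miRNA is a short RNA that guides the silencing complex to messenger RNAs, mainly by pairing of its seed (bases 2 to 8), so miRNAs with the same seed share many targets. In the cuprizone model, oligodendrocytes die during feeding, microglia and astrocytes react, and precursor cells begin to rebuild myelin once the toxin is withdrawn. miR-219 and miR-338 promote the maturation of oligodendrocytes. miR-146a and miR-155 are induced in activated myeloid cells, the former as a brake on NF-kB signalling, and miR-21 is induced in reactive glia. The tissue piece holds all of these cells, so fewer cells of a type and less of a miRNA per cell cannot be told apart.

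The sequences below are those of the miRNAs on which the comparison turns, with the seed in capitals, taken from RefSeq for GRCm38.p6 (32 of the 37 mature names looked up were found there). The first set lay lower at 2wr on both arrays than on any 2dr array, apart from miR-34a, miR-148a and miR-152. These are seed relatives whose groups overlapped. miR-34c also lay lower, but its mature name was not found.
miR-34b-5p: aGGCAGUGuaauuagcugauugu
miR-34a: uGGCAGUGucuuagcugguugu
miR-21: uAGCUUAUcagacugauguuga
miR-19b: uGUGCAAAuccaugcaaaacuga
miR-301a: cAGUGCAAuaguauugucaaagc
miR-130a: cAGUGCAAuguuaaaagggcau
miR-148b: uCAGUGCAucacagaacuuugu
miR-148a: uCAGUGCAcuacagaacuuugu
miR-152: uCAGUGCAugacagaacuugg

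The next set lay higher at 2wr on both arrays, apart from the tested seed relative miR-132, whose groups overlapped. miR-383 also lay higher, but its mature name was not found.
miR-212: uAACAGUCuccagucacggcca
miR-132: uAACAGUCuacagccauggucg
miR-744: uGCGGGGCuagggcuaacagca
miR-431*: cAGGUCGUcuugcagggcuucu

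The last set holds the 3 miRNAs that the study singled out, with the tested seed relatives of miR-146a and miR-181b, shown because they bear on recovery.
miR-146a: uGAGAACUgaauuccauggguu
miR-146b: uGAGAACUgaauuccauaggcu
miR-181a: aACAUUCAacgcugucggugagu
miR-181b: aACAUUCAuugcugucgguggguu
miR-181c: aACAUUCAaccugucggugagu
miR-181d: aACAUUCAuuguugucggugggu
miR-193: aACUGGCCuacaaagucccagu

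Single-colour Agilent arrays were used, on which the brightness of the labeled RNA at each probe is read as signal intensity. The 2dr arrays detected 224, 181, 253 and 231 of 566 mouse miRNAs (replicates 1 to 4) and the 2wr arrays 198 and 283. The summed signal was 108010, 45664, 139285 and 132492 on the 2dr arrays and 72411 and 129989 on the 2wr arrays, so replicate 2 of 2dr and replicate 1 of 2wr were dim. Signals were therefore divided by the 75th percentile of their array and taken to log2, and this log2 value, which is 0 at that percentile, is the normalized signal below. The arrays lay on 2 slides scanned at different times: slide 2 held replicate 3 of 2dr and replicate 2 of 2wr, and slide 1 held the other 3 arrays of 2dr and the other one of 2wr. The slide therefore weighed more in the 2wr mean than in the 2dr mean. Across the 225 tested miRNAs, the shift from slide 1 to slide 2 within 2dr and that within 2wr correlated at r = 0.62 (Spearman's rho 0.37), as a description. Within-slide values therefore stand beside most of the differences below.

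No miRNA passed the criteria of the study between 2wr and 2dr. Of the 225 miRNAs tested, limma called 0 higher (0%) and 0 lower (0%) when a call needed both a 2-fold difference and a p under 0.05 after Benjamini-Hochberg adjustment, and the smallest adjusted p was 1. The unadjusted p from limma was under 0.05 for 2 miRNAs (0.889%), miR-431* and miR-212, where 11.25 of 225 would be expected with no difference. Of the 2, miR-431* passed the filter only through the 2wr group. The methods' own test also called 0. The 95% interval of the difference lay within 2-fold either way for 104 miRNAs (46.2%). For 84 miRNAs it reached more than 1 (2-fold) to either side of the difference, so that a 2-fold difference could not be told from 0 for them with these arrays. The median width to either side of a difference was 0.84 on the log2 scale over all tested miRNAs and 0.75 over the 172 detected on all 6 arrays.

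**Figure D1:**
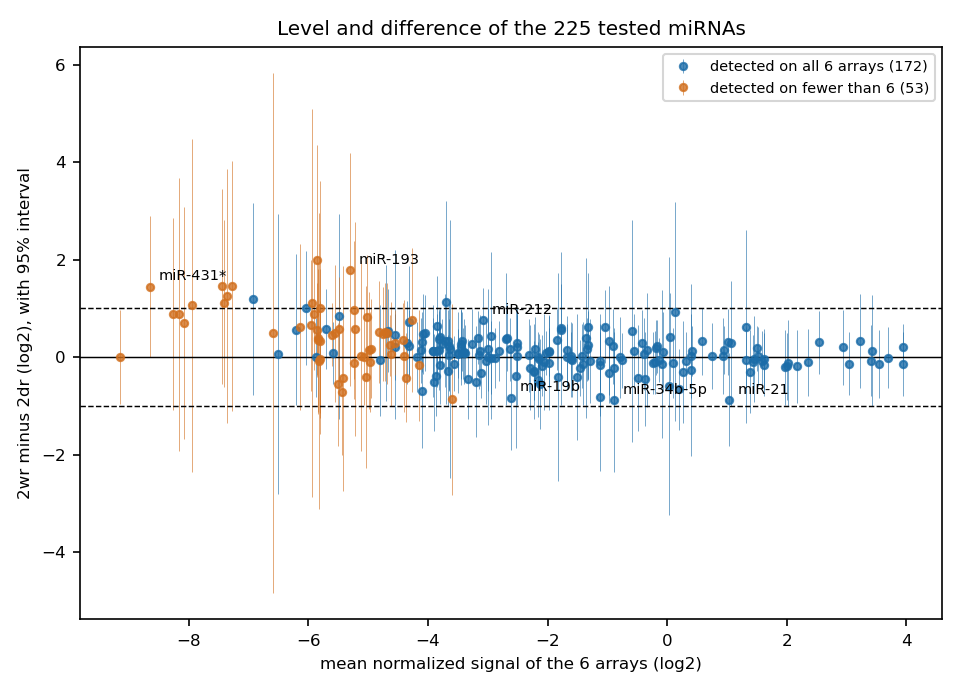
Mean normalized signal of the 6 arrays (x, log2) against the fitted difference between 2wr and 2dr (y, log2, with its 95% interval as a vertical line) for the 225 tested miRNAs, blue where detected on all 6 arrays and orange where detected on fewer. Dashed lines mark a 2-fold difference: 13 miRNAs lie above the upper line and 0 below the lower one, and those with the lowest signals have the widest intervals.

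The fitted difference (2wr minus 2dr, log2) ran from -0.88 to 2.00 with a median of 0.12, and it was above 0 for 143 miRNAs (63.6%). That share depended on the scaling: it was 52% with the percentile taken over all mouse miRNAs, 52.9% with quantile normalization, 50.7% with the authors' processed values and 28.4% with another background correction (normexp). The normexp signals carry a constant of 50, added before the scaling. It pulls the differences of dim miRNAs towards a common value that need not be 0, here and below. With normexp the median difference over all tested miRNAs was -0.06. The fitted difference was 1 or more for 13 miRNAs (5.78%) and -1 or less for 0. Only 3 of the 13, miR-674, miR-150 and miR-346, were detected on all 6 arrays, and the counts fell to 4 with the slide as a block and to 1, miR-193, when a higher floor for dim signals was also set. The other 12 thus went below 2-fold when dim signals and the slide were both taken into account. With normexp, whose constant pulls the differences of dim miRNAs together, miR-193 had 0.07. Among the 172 miRNAs detected on all 6 arrays, differences ran from -0.88 to 1.20 with a median of 0.07.

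The 2wr and 2dr arrays did not overlap for 12 miRNAs (5.33%): 5 with both 2wr arrays above every 2dr array (2.22%) and 7 with both below (3.11%). The lack of overlap by itself gave all 12 the same direction within both slides. It also fixed the exact two-sided permutation p at 0.133 for each, the smallest that 2 against 4 arrays can give. If the arrays were interchangeable, a miRNA with no difference would separate with a probability of 0.133, so 5.33% was below the share expected. Detection on every array of the higher group left 11 of them, since miR-760 was detected on 1 of 2 arrays at 2wr. These counts rest on few arrays: 37 miRNAs were higher without overlap and 27 lower when replicate 1 of 2wr was left out, and 46 and 22 when replicate 2 was.

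Among those higher at 2wr was miR-212, which is transcribed together with miR-132 in response to neuronal activity. The normalized signal of miR-212 was -3.07, -3.65, -3.03 and -3.56 on the 2dr arrays (replicates 1 to 4) and -2.55 and -2.58 on the 2wr arrays. Both 2wr arrays lay above the brightest 2dr array and close to each other. The difference was 0.76 (SE 0.31, 95% interval 0.10 to 1.42, adjusted p = 1 from limma), with 0.87 within slide 1 and 0.45 within slide 2, and it was 0.20 with normexp. The control arrays had a mean of -2.50 ± 0.45 (SD, n = 4) and the 4wd arrays -2.53 ± 0.23 (SD, n = 4), so that the 2dr mean of -3.33 ± 0.32 (SD, n = 4) was the low one of the 4 groups. miR-132, which shares the seed AACAGUC and lies beside miR-212 in the genome, was at 1.24, 0.95, 0.57 and 0.87 on the 2dr arrays and at 1.48 and 0.96 on the 2wr arrays. Its groups overlapped, and its difference of 0.31 (95% interval -0.37 to 0.99) had the same sign within slide 1 (0.46) and slide 2 (0.39).

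miR-383 and miR-744 had smaller differences. miR-383, which is on the list of neuronal miRNAs, was at -3.98, -4.37, -3.90 and -4.62 at 2dr and at -3.63 and -3.82 at 2wr, a difference of 0.50 (95% interval -0.28 to 1.28). The dimmer 2wr array lay just above the brightest 2dr array, and within slide 2 the difference was 0.08. miR-744 was at -4.76, -4.87, -4.83 and -4.95 at 2dr and at -4.35 and -4.26 at 2wr, a difference of 0.54 (95% interval -0.31 to 1.40), with 0.51 within slide 1 and 0.57 within slide 2. Both groups of miR-744 were tight (SD 0.08 at 2dr, n = 4, and 0.06 at 2wr, n = 2), but with normexp the difference was 0.02 (and 0.14 for miR-383), while its 4 control arrays spread from -5.10 to -3.66.

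miR-431*, the minor strand of a miRNA of the imprinted cluster that also holds miR-433, was the one miRNA detected on both arrays of 2wr and on no array of 2dr. Its normalized signal was at the floor of -9.15 on replicates 1, 2 and 4 of 2dr, at -9.07 on replicate 3, and at -7.52 and -7.84 at 2wr. Set against the lowest detected signal of each 2dr array, the bound on this difference was 1.97-fold (adjusted p = 1 from limma, means -9.13 at 2dr and -7.68 at 2wr). Set against the 5th percentile of the detected signals it was 0.34-fold, so no lower limit above 1 held for both references. The differences of its 4 probes ran from 0 to 1.50. With the higher floor all 6 arrays were at the floor, so the separation rests on the dimmest signals of the arrays, and with normexp the difference was -0.04. On the control arrays it was detected in 3 of 4.

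**Figure D2:**
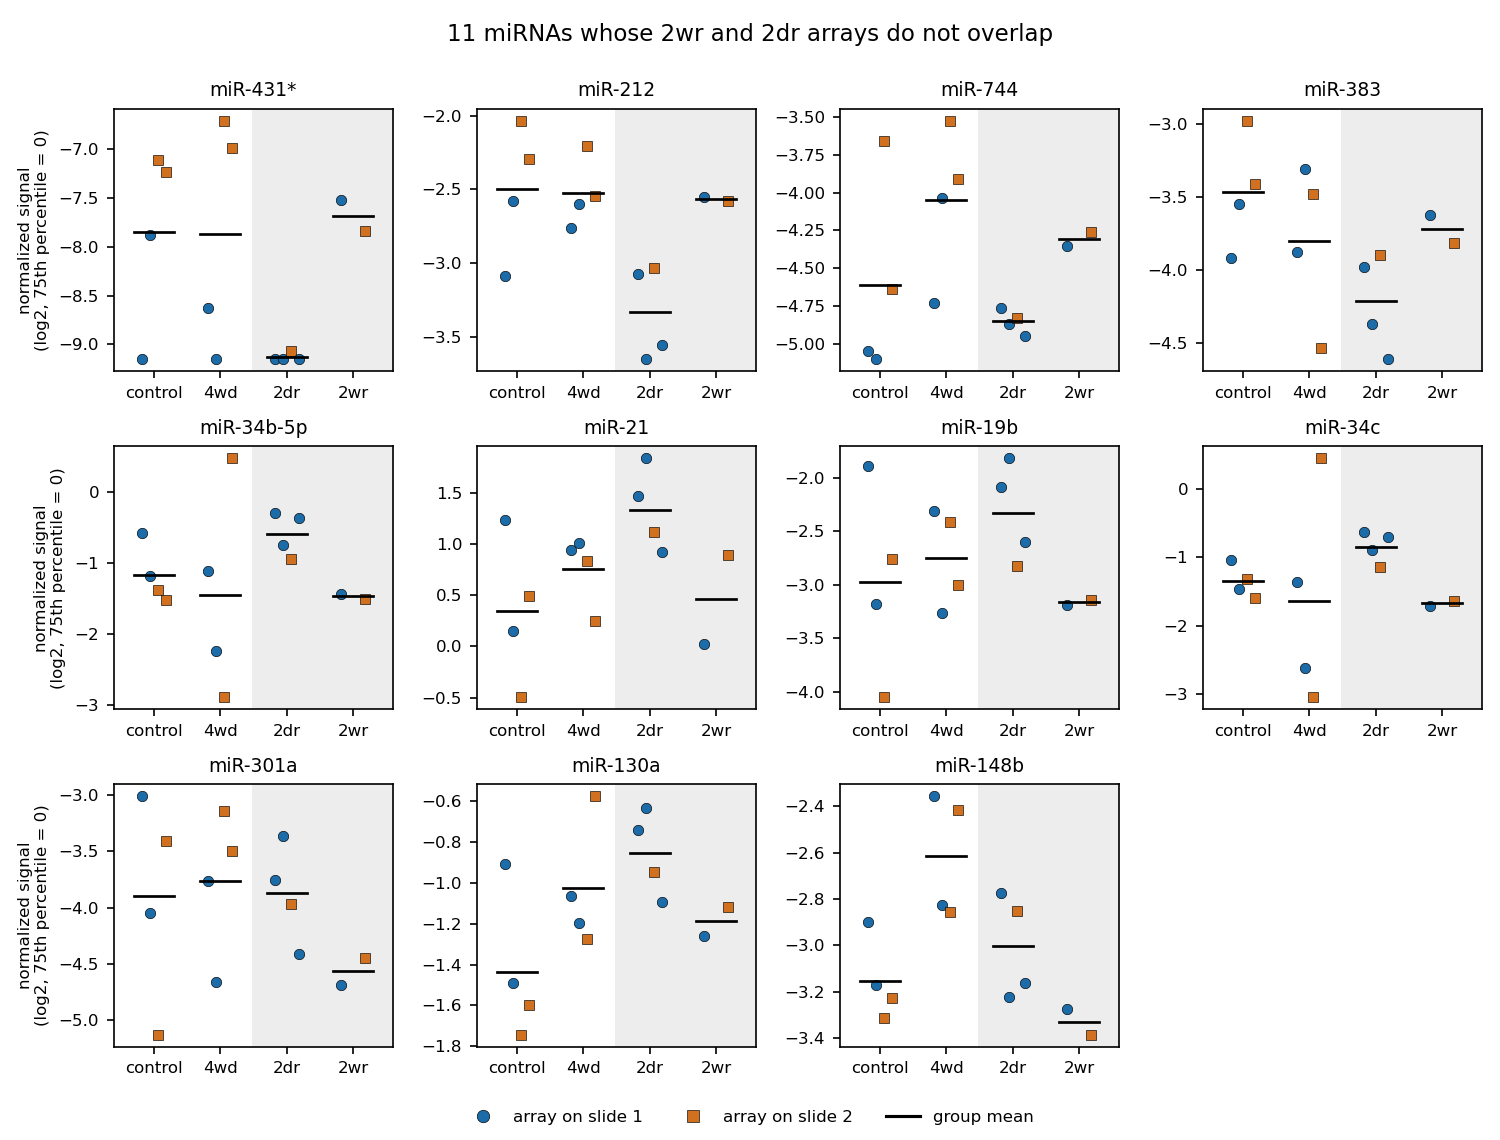
Normalized signal (y, log2, 75th percentile of the array = 0, scale differs between panels) of the 11 miRNAs whose 2wr and 2dr arrays do not overlap, by group (x). Each point is an array, blue circles on slide 1 and orange squares on slide 2, and bars are group means; in the shaded part both 2wr arrays lie above all 2dr arrays in the upper row and below them in the other rows.

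Among those lower at 2wr were miR-34b-5p and miR-34c, which are made from neighbouring genes and are abundant in ciliated cells such as the ependyma. miR-34b-5p was at -0.30, -0.75, -0.95 and -0.37 at 2dr and at -1.43 and -1.51 at 2wr, a difference of -0.88 (SE 0.68, 95% interval -2.35 to 0.59). miR-34c was at -0.63, -0.90, -1.14 and -0.71 at 2dr and at -1.71 and -1.63 at 2wr, a difference of -0.83 (SE 0.69, 95% interval -2.33 to 0.67). The same 4 arrays of 2dr lay above the same 2 of 2wr, with differences of -0.96 and -0.96 within slide 1 and of -0.56 and -0.50 within slide 2. Their intervals include the spread of the 4wd arrays, which ranged from -2.89 to 0.47 for miR-34b-5p and from -3.04 to 0.44 for miR-34c, since the 4 groups share one estimate of the spread. miR-34a, with the same seed GGCAGUG and a target of p53, is made from another gene. It was at 0.96, 0.92, 0.01 and -0.18 at 2dr and at -0.44 and -0.04 at 2wr, so that 1 of the 2wr arrays overlapped the 2dr range, and its difference was -0.66 (95% interval -1.50 to 0.18), with -1.0 within slide 1 and -0.05 within slide 2.

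Because miR-34b and miR-34c mark ciliated cells, the choroid plexus list was set beside them. Its tested member miR-204 was at -0.46, -1.24, 0.94 and 0.03 at 2dr and at 0.81 and 0.69 at 2wr, a difference of 0.94 (95% interval -1.32 to 3.19) that was 1.37 within slide 1 and -0.25 within slide 2. The other members, miR-211 (1 of 4 arrays at 2dr, 1 of 2 at 2wr) and miR-448 (0 of 4 and 1 of 2), were detected too seldom to be tested. The summed scaled signal of the list was 0.427 to 1.95 at 2dr and 1.65 to 1.78 at 2wr. The part of dissected neighbouring tissue in the values of miR-34b-5p and miR-34c was not tested.

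miR-21 was at 1.47, 1.84, 1.11 and 0.92 at 2dr and at 0.02 and 0.90 at 2wr. The brighter 2wr array thus lay just under the dimmest 2dr array, and the difference was -0.87 (SE 0.44, 95% interval -1.83 to 0.08, adjusted p = 1 from limma). It was -1.39 within slide 1 and -0.22 within slide 2, and it was -0.44 without replicate 1 of 2wr and -1.31 without replicate 2, so the size rests on which 2wr array is used. The means of miR-21 were 0.34 ± 0.72 on control arrays, 0.76 ± 0.35 at 4wd, 1.33 ± 0.40 at 2dr and 0.46 ± 0.62 at 2wr, each with the SD over 4 arrays or, for 2wr, over 2.

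miR-19b, of the miR-17-92 cluster that promotes proliferation, was at -2.08, -1.82, -2.83 and -2.60 at 2dr and at -3.19 and -3.14 at 2wr, a difference of -0.83 (SE 0.50, 95% interval -1.91 to 0.25). Both 2wr arrays lay below the 2dr range, with -1.02 within slide 1, -0.31 within slide 2 and -0.43 with normexp. miR-301a was at -3.76, -3.36, -3.96 and -4.42 at 2dr and at -4.69 and -4.45 at 2wr, a difference of -0.69 (95% interval -1.86 to 0.48) that was -0.84 within slide 1, -0.48 within slide 2 and -0.24 with normexp. The brighter 2wr array lay just under the dimmest 2dr array. miR-130a, which shares the seed AGUGCAA with miR-301a, was at -0.74, -0.63, -0.95 and -1.09 at 2dr and at -1.26 and -1.12 at 2wr. Its difference of -0.33 (95% interval -0.94 to 0.28) had an interval within 2-fold in either direction.

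miR-148b was at -2.77, -3.22, -2.85 and -3.16 at 2dr and at -3.27 and -3.39 at 2wr, a difference of -0.33 (95% interval -0.84 to 0.19), again within 2-fold, with -0.22 within slide 1 and -0.54 within slide 2. Its seed relatives miR-148a and miR-152 had differences of -0.42 (95% interval -1.33 to 0.49) and -0.72 (95% interval -2.01 to 0.56). Their groups overlapped, miR-152 was detected on 4 of the 6 arrays, and its difference was -1.80 within slide 1 and 0.03 within slide 2.

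Of the 11 miRNAs, 9 had both 2wr arrays inside the range of the 4 control arrays, and 3 had all 4 of the 2dr arrays inside it. Over all tested miRNAs these shares were 43.6% at 2wr and 16.4% at 2dr, and a group of 2 arrays lies inside a range more easily than one of 4. The 11 were chosen by the gap between 2wr and 2dr, so the counts are a description. The exceptions at 2wr were miR-34c, with both arrays below the control range, and miR-148b, with 1 array below it.

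The direction of most miRNAs was not the same within the slides. Of the 225 tested, 56 were higher at 2wr within both slides (24.9%), 36 were lower within both (16%) and 130 had opposite signs, and the remaining 3 had a difference of 0 on a slide. The within-slide differences correlated at r = -0.12 (Spearman's rho -0.22) across miRNAs, which share the same 6 arrays and are not independent. Within slide 1, 145 miRNAs were higher at 2wr (64.4%), and within slide 2, 99 were (44%). A difference of 2-fold or more in the same direction within both slides was seen for 3 miRNAs, miR-138*, miR-193 and miR-431*, all of them higher at 2wr and none detected on all 6 arrays.

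**Figure D3:**
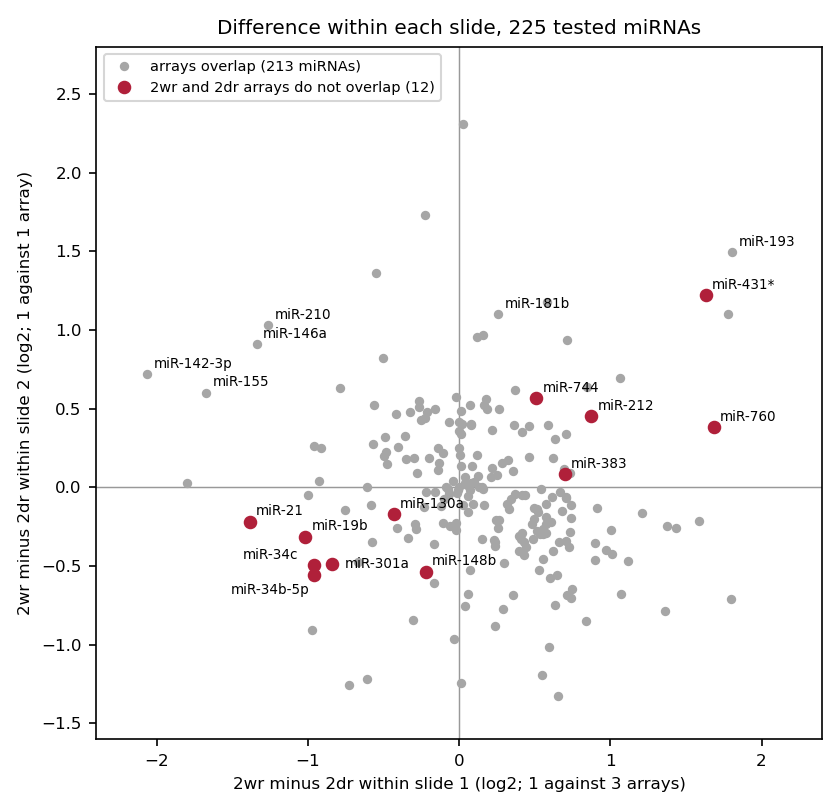
Difference between 2wr and 2dr within slide 1 (x, log2, 1 array against 3) and within slide 2 (y, log2, 1 array against 1) for the 225 tested miRNAs. The 12 miRNAs whose arrays do not overlap (red) all lie at the lower left or upper right, where the lack of overlap must place them. The 130 miRNAs with opposite signs lie at the upper left or lower right.

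Lists of miRNAs typical of cell types and families were then described by their counts and medians, beside a median of 0.12 over all tested miRNAs and 0 called in each direction. The 6 miRNAs of the oligodendrocyte list were all tested, and their median difference was 0.09 (3 above and 3 below 0). miR-219, which releases precursors into differentiation, was at 0.29, -0.63, -0.79 and 1.01 at 2dr and at -0.01 and -0.34 at 2wr. Its 2wr arrays lay inside the 2dr range, and the difference of -0.14 (95% interval -1.67 to 1.38) allowed more than a 2-fold change either way, and it was 0.01 with the slide as a block. miR-338-3p was at 1.05, 0.40, 0.23 and 2.23 at 2dr and at 1.34 and 1.18 at 2wr, also inside the range, with a difference of 0.28 (95% interval -1.0 to 1.57). The control means of these miRNAs were 0.32 ± 1.28 (SD, n = 4) for miR-219 and 1.72 ± 0.94 (SD, n = 4) for miR-338-3p. miR-338-5p, the other strand, was detected on 1 of 4 arrays at 2dr and 1 of 2 at 2wr, and its difference of 1.46 was 0.02 within slide 1 and 2.31 within slide 2.

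Of the 8 miRNAs on the myeloid and immune list 7 were tested, with a median difference of -0.08 (3 above and 4 below 0), or 0.07 (4 above and 3 below) under quantile normalization. The sign turned with the slide: 6 of 7 were lower at 2wr within slide 1 (34.2% over all tested), and 7 of 7 were higher within slide 2 (44% over all tested). miR-142-3p, which is specific to blood-derived and microglial cells, was at -2.99, -1.45, -3.87 and -4.91 at 2dr and at -5.18 and -3.15 at 2wr. One 2wr array lay below all 2dr arrays and the other inside their range, and the difference of -0.86 (95% interval -2.82 to 1.1) was -2.06 within slide 1, 0.72 within slide 2 and -0.21 with normexp. miR-155 was at -5.07, -4.78, -5.38 and -6.02 at 2dr and at -6.96 and -4.78 at 2wr, detected on 4 of 4 arrays at 2dr and 1 of 2 at 2wr. It passed the filter only through the 2dr group, and its difference was -0.56 (95% interval -1.83 to 0.71). The neutrophil and monocyte miRNA miR-223 had a difference of 0.33 (95% interval -1.14 to 1.80), and the lymphocyte miRNA miR-150 one of 1.12 (95% interval -0.96 to 3.21), the former -0.05 with normexp. The values of miR-150 followed the slide in every group, and its difference was 0.60 with the slide as a block.

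**Figure D4:**
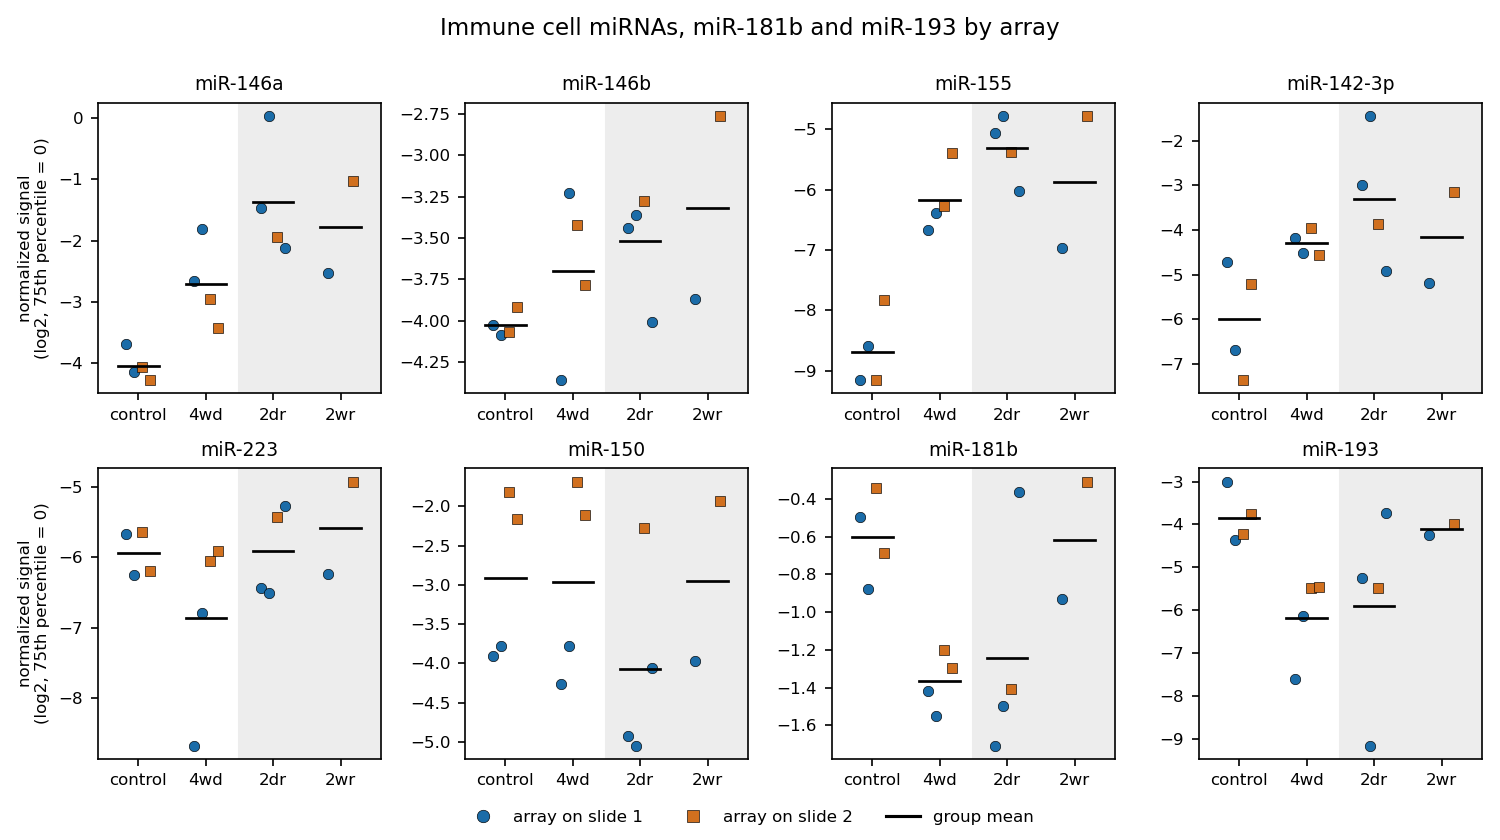
Normalized signal (y, log2, 75th percentile of the array = 0, scale differs between panels) of 6 immune miRNAs, miR-181b and miR-193 by group (x), with blue circles for arrays on slide 1, orange squares for slide 2 and bars for group means. At 2wr the slide 1 array lies below the slide 2 array in every panel, for example at -2.53 against -1.03 for miR-146a.

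The 3 miRNAs that the study singled out, on these arrays and by qPCR, had 2 differences above 0 and 1 below, with a median of 0.62. Of these the paper went on to study miR-146a, which it found highest at 2wr by qPCR, a different measure. miR-146a was at -1.47, 0.04, -1.94 and -2.13 at 2dr and at -2.53 and -1.03 at 2wr, with a difference of -0.40 (SE 0.60, 95% interval -1.70 to 0.90). It was -1.34 within slide 1 and 0.91 within slide 2, and leaving out replicate 2 of 2dr gave 0.07 and replicate 1 of 2wr 0.34, so the sign depended on single arrays. All 6 arrays lay above the 4 control arrays, whose values were -4.28 to -3.69. miR-146b, with the same seed GAGAACU but another gene, was at -3.44, -3.36, -3.27 and -4.01 at 2dr and at -3.87 and -2.76 at 2wr. Its difference was 0.20 (95% interval -0.58 to 0.98), again lower within slide 1 (-0.27) and higher within slide 2 (0.51).

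miR-181b was at -1.71, -1.50, -1.41 and -0.36 at 2dr and at -0.93 and -0.31 at 2wr. Both 2wr arrays lay above 3 of the 4 arrays at 2dr, and the difference was 0.62 (SE 0.34, 95% interval -0.12 to 1.37), with 0.26 within slide 1 and 1.1 within slide 2. All 4 members of the miR-181 family, which share the seed ACAUUCA, were above 0 in the fit and within both slides (24.9% over all tested). Their differences were 0.41 for miR-181a, 0.62 for miR-181b, 0.20 for miR-181c and 0.64 for miR-181d, with a median of 0.52, and 0.32 with the slide as a block. All 4 were above 0 under each scaling and background correction that was tried. Within slide 1 the median of the family was 0.16, the same as over all tested miRNAs (0.16). Within slide 2, which is 1 array against 1, it was 0.51, against -0.05 over all tested. The members have similar sequences, and whether their probes share signal was not tested, so they do not count as 4 separate observations. Without replicate 2 of 2wr the median was -0.02.

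miR-193, the miRNA that RefSeq names miR-193a, was at -5.25, -9.15, -5.48 and -3.73 at 2dr and at -4.24 and -3.98 at 2wr. Replicate 2 of 2dr was at the floor and not detected, and replicate 4 lay above both 2wr arrays. The difference of 1.79 (SE 1.1, 95% interval -0.60 to 4.18, adjusted p = 1 from limma) was 1.81 within slide 1 and 1.50 within slide 2. It was 0.71 without replicate 2 of 2dr and 1.03 with the higher floor, so that dim array set much of its size, and with normexp it was 0.07. Control arrays had a mean of -3.84 ± 0.62 (SD, n = 4). miR-193b, whose sequence is not printed here, was detected on all 6 arrays and had a difference of 0.02 (95% interval -0.99 to 1.03). It was 0.75 within slide 1 and -0.64 within slide 2.

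The 7 miRNAs of glial reaction and growth had a median difference of -0.10 (2 above and 5 below 0). Beside miR-21 and miR-34a, miR-210, the hypoxia-induced miRNA, had a difference of -0.50 (95% interval -1.63 to 0.63) that was -1.26 within slide 1 and 1.03 within slide 2. miR-221 and miR-222, which lie next to each other and promote cell cycle entry, had differences of 0.22 (95% interval -0.32 to 0.76) and 0.59 (95% interval -0.98 to 2.16). Both turned sign with the slide, miR-221 with 0.52 within slide 1 and -0.16 within slide 2 and miR-222 with 0.49 and -0.20, and miR-222 had a difference of 0.26 with the slide as a block.

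Of the 11 miRNAs from the miR-17-92 and miR-106b-25 clusters and their paralogs, 7 were tested, and all 7 had a difference below 0 (36.4% over all tested). The differences ran from -0.83 for miR-19b to -0.17 for miR-93, with a median of -0.45. Within slide 1 all 7 were below 0 as well, but within slide 2 this held for 1 of 7, miR-19b. miR-92a was at -0.13, 0.44, -1.19 and 0.01 at 2dr and at -0.38 and -0.97 at 2wr, its 2wr arrays inside the 2dr range. The 7 stayed below 0 under each scaling of the arrays that was tried and with the slide as a block, where the median was -0.32. Members of a cluster are cut from one transcript and have related sequences, so that they are not separate observations.

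The neuron list had 14 tested members of 15, with 12 above 0 and a median difference of 0.14, close to that of all tested miRNAs. Within slide 1 there were 13 of 14 above 0 and within slide 2 there were 4, and the median was -0.16 without replicate 1 of 2wr and 0.43 without replicate 2. Under quantile normalization, which lowered the median over all tested miRNAs by 0.10, 7 of the 14 were above 0. miR-124, the most neuron-specific of them, was at 3.35, 2.56, 2.94 and 2.65 at 2dr and at 3.35 and 2.81 at 2wr, a difference of 0.21 (95% interval -0.56 to 0.97) that was -0.11 under quantile normalization. The values of miR-9 followed the slide, with 3.00 on the slide 2 array and 0.34 to 0.70 on the others at 2dr, and 2.89 and 0.57 at 2wr. Its difference was 0.62 in the fit and 0.13 with the slide as a block.

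**Figure D5:**
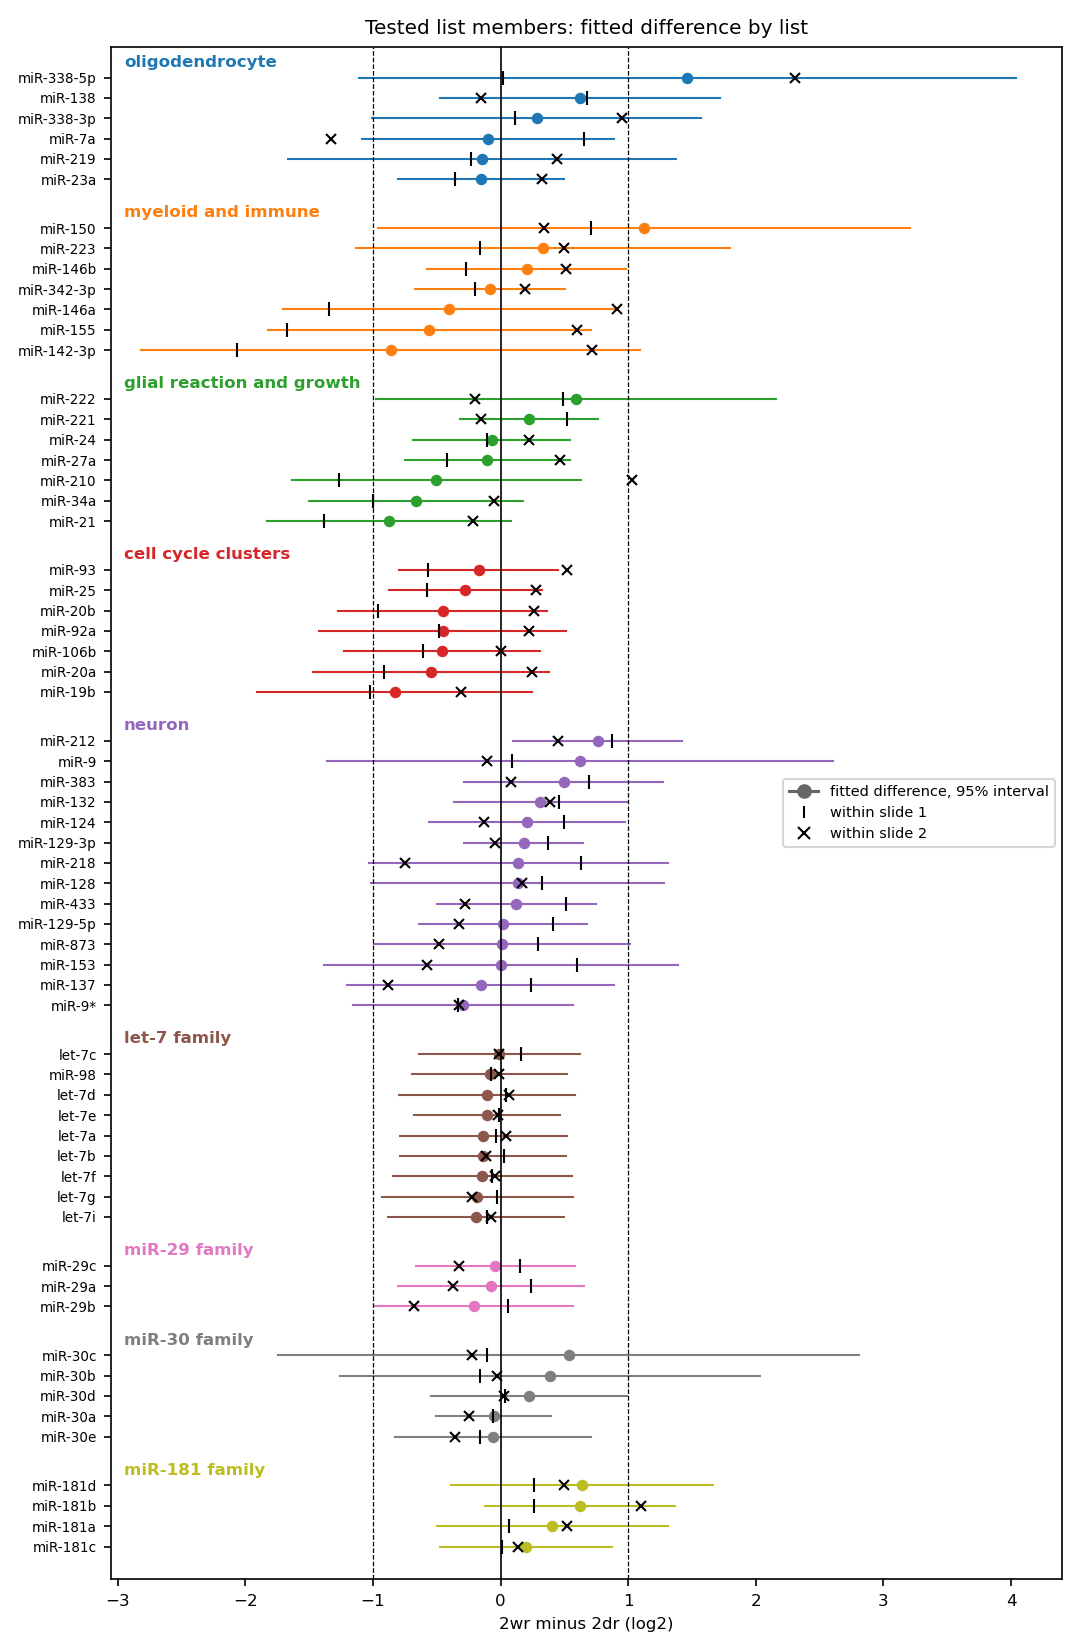
Fitted difference between 2wr and 2dr (x, log2, dot) with its 95% interval (line) for the tested members of 9 lists, with the difference within slide 1 (bar) and within slide 2 (cross). Dashed lines mark 2-fold; only the interval of miR-212 excludes 0, the intervals of the let-7 and miR-29 families lie within 2-fold, and bar and cross lie on opposite sides of 0 for most immune and cell cycle miRNAs.

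The let-7 miRNAs restrain growth and are abundant in differentiated cells, and all 9 members were tested. Their differences ran from -0.19 for let-7i to -0.01 for let-7c, with a median of -0.13, and the 95% interval lay within 2-fold for all 9 (46.2% over all tested). With the slide as a block 3 of 9 were above 0 and the median was -0.02, and quantile normalization and the mean of the spots each turned 1 member to above 0. The median was -0.36 without replicate 1 of 2wr and 0.08 without replicate 2, so that its sign rested on single arrays. The members differ by few bases, and whether their probes share signal was not tested. All 3 members of the miR-29 family, which represses collagens, also had intervals within 2-fold, with differences of -0.21 for miR-29b, -0.07 for miR-29a and -0.04 for miR-29c. With the slide as a block 2 of these 3 were above 0, and under quantile normalization 1 was, and the median was -0.37 without replicate 1 of 2wr and 0.11 without replicate 2.

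In the miR-30 family, the differences of miR-30b (0.39) and miR-30c (0.53) followed the slide. miR-30c was at -1.40, -1.62, 1.33 and -1.37 at 2dr and at -1.57 and 1.1 at 2wr, so that in both groups the slide 2 array stood apart from those on slide 1. With the slide as a block the differences were -0.01 for miR-30b and -0.05 for miR-30c. miR-30a, by contrast, had the smallest error of all tested miRNAs, with a difference of -0.05 (SE 0.21, 95% interval -0.50 to 0.40).

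Markers of other tissues and cells were measured on the same arrays. The red blood cell miRNA miR-451 had a difference of -0.01 (95% interval -0.84 to 0.83), or 0.13 with the slide as a block, and miR-144 was detected on none of the 6 arrays. miR-486, of the same list and detected on 2 of 4 arrays at 2dr and 1 of 2 at 2wr, had a difference of 0.63 (95% interval -1.08 to 2.33), with 0.19 within slide 1 and 0.50 within slide 2. The endothelial miRNA miR-126-3p had a difference of -0.12 (95% interval -0.76 to 0.52), and miR-143 of the smooth muscle of vessels, detected on 3 of 4 arrays at 2dr and 1 of 2 at 2wr, one of 0.58 (95% interval -1.62 to 2.77) that was -0.32 within slide 1 and 0.48 within slide 2. Of the miRNAs of muscle and liver, miR-122 and miR-206 were detected on none of the 6 arrays, and miR-133b, on 3 of 4 arrays at 2dr and 1 of 2 at 2wr, had a difference of 0.89 (95% interval -0.25 to 2.04), or -0.04 with normexp. It was 1.21 within slide 1 and -0.16 within slide 2. miR-1, detected on as many arrays, and miR-133a, on 2 of 4 and 1 of 2, were not tested, and the mean of miR-1 was -6.43 at 2dr and -7.27 at 2wr, while that of miR-133a was -7.26 and -6.23. The epithelial miR-200 family was nearly absent, with 4 of 5 members detected on none of the 6 arrays.

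Detection itself gave few differences. Of the 566 mouse miRNAs, 172 were detected on all 6 arrays, 279 on none and 115 on some. No miRNA was detected on all 4 of the 2dr arrays and on neither 2wr array, and miR-431* was the one in the other direction. Apart from miR-155 and miR-431*, miR-362-3p was the only miRNA that passed the filter through a recovery group and no other of the 4 groups. It passed through 2wr, at -5.93 to -4.12 at 2dr and -4.93 to -4.86 at 2wr, where the groups overlapped.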

How the data were processed

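The deposited scanner files hold a total signal intensity for each miRNA on a linear scale, in which the authors' image software (Feature Extraction 10.5.1.1 in the submitters' processing notes; the methods name a later version) had subtracted the background, summed the probes and set a detection call. The table of processed values deposited by the authors is on the log2 scale. On 13 arrays at least 559 of its 560 miRNAs equalled, within 0.01, the logarithm of the scanner's total signal (raised to at least 1) less one constant per array, and on replicate 1 of 4wd 368 did. It served only as an alternative. It was scaled by the array and not centred by miRNA, with column medians from -5.73 to -3.05.

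Each array's total signals were scaled by their 75th percentile, taken over the 170 miRNAs that all 14 arrays detected, then raised to a floor of 0.00176 (the median over arrays of the lowest detected signal, -9.15 as log2) and taken to log2. The higher floor was 0.0147 (-6.09), the 5th percentile of detected signals. Control spots and 10 viral miRNAs were left out, and no spot was saturated. Testing required detection throughout 1 or more of the 4 groups, which 225 of 566 miRNAs met. All 4 groups entered one fit with no slide term (limma 3.58.1, R 4.3.3, functions lmFit, contrasts.fit and eBayes). Intervals are the fit's 95% intervals. Exact two-sided permutation tests used scipy 1.17.1 over 15 arrangements. The fit was tested on simulated data. For arrays, their number limits the precision. The most similar pair of arrays still differed by a median of 0.26 (log2).

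The text names miRNAs past the threshold, those detected on all arrays of one group and none of the other, list members and tested seed relatives. It also names up to 10 in each direction whose groups did not overlap, moved the same way within both slides and were detected on every array of the higher group. The lack of overlap already fixes the direction within the slides. miR-760, the 13 miRNAs at 2-fold and those 2-fold within both slides were picked out after their values were seen. The comparison, the members and the 15 lists were chosen with earlier results of these data known, and the list of the study's miRNAs was chosen by it on these arrays. Array names were matched to RefSeq mature names by hand. The array's design (mm9) and the reference table (GRCm38.p6) differ in build, so no coordinates are given, and the table was used for names and for which genes lie within 10 kb of each other. The alternatives were other floors, scalings, filters, background corrections (normexp with an offset of 50 on the spots' median signal, since the files lack the mean), blocks and tests, and leaving out each array.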

Additional observations from a re-analysis of the deposited data

Results flagged for a closer look

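For 6 of 50 sets of 4 values at 2dr, 1 array stood apart from the other 3, with a gap to its nearest neighbour that took up more of the whole range than Dixon's 95% limit, which chance gives in about 1 of 20 sets. Replicate 3, the 2dr array on slide 2, stood apart for 5 of them. This was so for miR-9 (gap 0.863 of the range, replicate 3 at 3.00), miR-30c (0.915, at 1.33), miR-152 (0.895, at -4.70), miR-106b (0.954, at -2.49) and miR-431* (1.0, at -9.07, where the other 3 arrays were at the floor). For miR-221 replicate 4 stood apart, at -0.52 (0.872). The 2wr group, with 2 arrays, could not be examined in this way.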

How the results depend on the processing

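The limma count of 0 calls held under all 32 alternatives, with 0 to 29 miRNAs at an unadjusted p under 0.05. The smallest adjusted p for 2wr against 2dr was 0.141, from limma with only 2dr and 2wr in the fit. In the methods' test the smallest adjusted p was 0.0823, but it belongs to the ANOVA over all 4 groups. Tukey's p between 2wr and 2dr was under 0.05 for 0 miRNAs. Over the 48 miRNAs followed through the alternatives, adjusted p ran from 0.0823, of that ANOVA, to 1. The number of arrays, above all the 2 at 2wr, and the dim signals limit what could be seen. The titles number the 2wr arrays 1 and 2 while the source names number them 5 and 6, so the numbers were not read as a pairing. The deviations of same-numbered arrays from their group means correlated at r = 0.67 for replicate 1 and r = -0.16 for replicate 2. With 2 arrays at 2wr these are not separate checks. Both arrays numbered 1 lay on slide 1 and those numbered 2 on different slides, so the correlations cannot decide on a pairing. With the replicate number as a block, 0 were called, 29 had an unadjusted p under 0.05 and the smallest adjusted p was 0.169.

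The count of miRNAs higher at 2wr without overlap, 5, became 3 with the higher floor, 8 with the 75th percentile of all mouse miRNAs as the scale, 0 with normexp, 1 without scaling, 15 without the filter and 3 when only miRNAs detected on all 14 arrays were kept, where fewer miRNAs were tested. The count of those lower, 7, became 4 with normexp, 0 without scaling and 11 with the authors' processed values. Leaving out 1 array gave 6 to 46 higher and 7 to 27 lower, since fewer arrays overlap less often. Apart from the filter and the left-out arrays, the cause was not tested.

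Of 801 single values under the alternatives that kept all arrays, 15 turned their direction, for 9 miRNAs. With normexp 31 of the 48 differences were smaller by over 1.5 times, against 15 with the slide as a block and 8 with the higher floor. The constant added with normexp by itself moves the differences of dim miRNAs towards a common value, so that count does not measure how well they hold. Those that turned with normexp were miR-431* (-0.035), miR-760 (-0.0417), miR-223 (-0.049) and miR-133b (-0.038). With quantile normalization they were miR-124 (-0.11) and miR-451 (0.0073). With the slide as a block, at either floor, they were miR-219 (0.013), miR-451 (0.13), miR-30b (-0.0090) and miR-30c (-0.048), and at the higher floor also miR-760 (-0.078). Leaving out 1 array turned 17 miRNAs, most often when a 2wr array was left out (10 without replicate 2 and 7 without replicate 1). Their ranges were -0.40 to 0.20 for miR-219, -0.28 to 3.20 for miR-338-5p, -1.87 to 0.15 for miR-142-3p, -1.65 to 0.53 for miR-155, -1.15 to 0.34 for miR-146a, -0.35 to 0.76 for miR-146b, -0.32 to 0.98 for miR-223, -0.045 to 0.49 for miR-221, -0.42 to 0.074 for miR-93, -0.062 to 0.47 for miR-124, -0.54 to 1.78 for miR-9, -0.14 to 0.13 for miR-451, -0.64 to 1.42 for miR-30b, -0.80 to 1.87 for miR-30c, -0.039 to 0.85 for miR-181a, -0.12 to 0.52 for miR-181c and -1.97 to 0.52 for miR-152. The cause of these turns was not tested.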
